A study of Homo sapiens with 6 samples.

Results

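The keratins are the epithelial intermediate filament proteins, and their genes were taken by name: every gene whose symbol is KRT followed by a digit, without the keratin-associated KRTAP genes and without KRTCAP and KRTDAP genes. This gave 37 keratin genes of the 16551 protein-coding genes in the deposited table, 14 of type I and 23 of type II. RNA was sequenced in 6 libraries of HaCaT cells (HaCat in the labels), a line of spontaneously immortalised human skin keratinocytes. The labels put 3 libraries in a group named NC, the control small interfering RNA group of the design text, and 3 in a group written si-YTHDF2, as is usual for a small interfering RNA that targets YTHDF2. That gene encodes a reader of N6-methyladenosine in mRNA. Dose, time after transfection and the RNA sequence are not stated in the labels. Replicates carry the numbers 1 to 3, but nothing says that each was its own culture. The p-values therefore measure how these libraries spread, which may be technical.

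A keratin filament is built from obligate pairs of 1 type I protein, which is acidic, and 1 type II protein, which is neutral to basic, and the pair in use changes with the kind of epithelium. In human epidermis KRT5 and KRT14 mark the basal layer and KRT1 and KRT10 the layers above it. KRT4 and KRT13 are the pair of non-cornified mucosa such as oesophagus, KRT6, KRT16 and KRT17 appear in wounded and psoriatic skin, and KRT7, KRT8, KRT18 and KRT19 are the keratins of simple epithelia, which many cultured lines also express.

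The question here was which keratins differed between the groups. The type II genes KRT3, KRT4 and KRT5 lie in 1 cluster on chromosome 12 and moved in different directions: KRT3 and KRT4 fell and KRT5 rose. Their promoters are printed for that reason, from 250 bases before to 50 bases after the start that RefSeq gives, on the minus strand of GRCh38.p14, 5′ to 3′. Capitals mark matches to TATAA, the core of the TATA box, and to GCCNNNGGC, a binding motif of AP-2 factors.

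KRT3 chr12:52796068-52796367: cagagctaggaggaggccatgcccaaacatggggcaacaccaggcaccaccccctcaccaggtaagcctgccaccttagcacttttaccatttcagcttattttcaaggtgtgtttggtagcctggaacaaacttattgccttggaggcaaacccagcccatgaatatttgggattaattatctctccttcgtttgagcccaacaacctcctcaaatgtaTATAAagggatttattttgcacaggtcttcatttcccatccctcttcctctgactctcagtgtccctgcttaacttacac
KRT4 chr12:52814067-52814366: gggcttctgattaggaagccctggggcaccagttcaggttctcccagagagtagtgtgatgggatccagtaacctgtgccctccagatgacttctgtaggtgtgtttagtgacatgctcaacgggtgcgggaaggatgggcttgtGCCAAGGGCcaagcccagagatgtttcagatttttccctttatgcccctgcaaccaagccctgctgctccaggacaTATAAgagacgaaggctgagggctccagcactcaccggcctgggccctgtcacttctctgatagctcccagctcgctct
KRT5 chr12:52520345-52520644: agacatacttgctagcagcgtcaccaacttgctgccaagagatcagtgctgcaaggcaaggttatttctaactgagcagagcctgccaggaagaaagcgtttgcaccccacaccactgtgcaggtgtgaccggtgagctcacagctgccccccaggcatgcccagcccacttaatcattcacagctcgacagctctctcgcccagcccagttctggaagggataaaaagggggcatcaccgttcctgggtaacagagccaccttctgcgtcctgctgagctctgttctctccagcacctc

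TATAA began at position -30 in KRT3 and at -29 in KRT4, counted from the start of transcription, and had no match in the KRT5 window. Only that exact string was searched. The KRT5 window holds gggataaaaaggg, which the search does not count, so the missing match does not show that KRT5 lacks a TATA element. GCCNNNGGC began at -105 in KRT4 and had no match in the other two. Both strands were searched, and the marked matches do not overlap each other. Over all 35116 RefSeq promoters of this length, 20.4% held TATAA and 23.2% held GCCNNNGGC. Among the 20 keratins with a promoter entry, 12 held TATAA and 5 held GCCNNNGGC. The AP-1 motif TGANTCA was in 7.71% of all promoters and in 0 of the 20. CACCC, the core of the Kruppel-like factor motif, is not capitalised. It was in 59.9% of all promoters and in 15 of the 20, KRT3, KRT4 and KRT5 among them. A match describes the letters of a window and does not show a site in use.

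YTHDF2, the targeted gene, had counts of 1631, 1526 and 1855 in NC and of 958, 1048 and 870 in si-YTHDF2, so all si-YTHDF2 libraries lay below all NC libraries. Its log2 fold change was -0.81 ± 0.07 (SE). The libraries held between 19803707 and 22698069 counts. Counts differed beyond sampling noise between all libraries, with a chi-square per gene of 3.67 to 13.5 within groups and 83.8 to 93.1 between them. Within si-YTHDF2, replicate 1 was the farthest, at 12.1 and 13.5 from the others. Of the 12 keratinocyte markers 12 passed the low-count filter, and 11 averaged at least 100 CPM (counts scaled to a common library size) in each group. The exception was KRT14, a defining basal keratin, at 2.22 CPM in NC and 2.00 CPM in si-YTHDF2. In this respect the data go against the keratinocyte label. Of the 12, 3 rose and 6 fell, where 26.1% of all tested genes rose and 25.2% fell. Fibroblast markers summed to at most 78.5 CPM and melanocyte markers to at most 30.0 CPM in any library. Merkel cell markers summed to at most 15.6 CPM, and the Merkel cell keratin KRT20 was not analysed here.

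Markers of other cell types moved with the groups, beside 26.1% higher and 25.2% lower over all tested genes. Of the 14 genes of mucosal and secretory epithelium, 12 were tested and all 12 fell, among them MUC16 and AGR2. Their summed level was 1916 to 2152 CPM in NC and 517 to 572 CPM in si-YTHDF2, and TFF3 had 1 count in all. VTCN1 passed the low-count filter through NC libraries alone, so its call is no support. Of the 13 erythroid and platelet genes, 8 were tested and all 8 rose, with a sum of 56.3 to 58.5 CPM in NC and 1550 to 1782 CPM in si-YTHDF2, most of it HBB, the beta globin. AHSP and GP9 had 6 and 2 counts in all. ALAS2, HEMGN, SLC4A1, PPBP and PF4 passed the filter through si-YTHDF2 libraries alone, so they had to differ and their calls are no support. HBA1, HBA2 and HBB passed it in both groups, with log2 fold changes of 4.40, 4.41 and 4.92. Of the 10 myeloid markers, 9 were tested, 6 rose and 2 fell, with sums of 30.0 to 37.7 CPM and 39.3 to 43.7 CPM. PTPRC, ITGAM, FCGR3A and CSF3R, which rose, also passed the filter through si-YTHDF2 libraries alone, so those calls are no support. What part these shifts have in the keratin values was not tested.

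Of the 37 keratins, 18 passed the low-count filter and were tested, 8 of type I and 10 of type II. By edgeR's quasi-likelihood test, with p-values adjusted by Benjamini-Hochberg over all 12264 genes tested, 9 keratins were lower in si-YTHDF2, 2 were higher and 7 did not pass an adjusted p of 0.05. The background was high: 51.2% of all tested genes passed, 25.2% lower and 26.1% higher, against 61.11% of the keratins, that is 9 of 18 lower and 11.11% higher. Beyond a 2-fold change the counts were smaller. The lower keratins of that size were 5, where the background was 3.86%, and no keratin was higher by that much, where the background was 3.53%. For 13 of the 18 keratins the groups did not overlap, 72.22% beside a background of 58.5%. The median log2 fold change was -0.29 over the 18 keratins and 0.01 over all tested genes. In bulk RNA, fewer cells that make a keratin and less of its RNA per cell cannot be told apart.

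**Figure D1:**
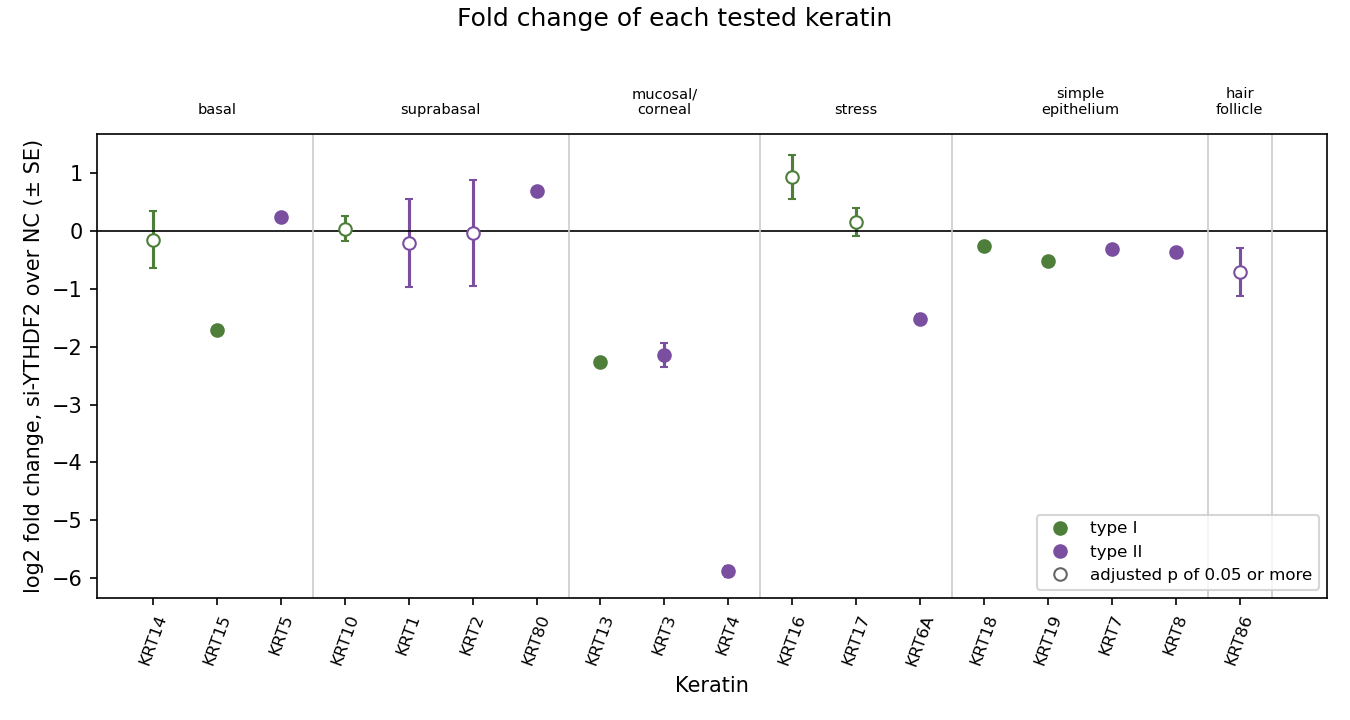
Log2 fold change (si-YTHDF2 minus NC) of the 18 tested keratins with its standard error, grouped by role. Colour gives the keratin type, and an open marker an adjusted p of 0.05 or more. KRT4 stands at -5.88, the 4 keratins of simple epithelia all lie below 0, and KRT5 and KRT80 are the 2 keratins called higher.

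The keratins of stratified mucosa and cornea fell most. There are 4 in the table, 3 were tested and all 3 were lower in si-YTHDF2, where 25.2% of all tested genes were lower. KRT13 (ENSG00000171401), the type I keratin of non-cornified mucosa, was the most abundant keratin of the NC libraries, at 9170, 9481 and 9521 CPM. In the si-YTHDF2 libraries it had 1785, 2011 and 2029 CPM, so each of them lay far below every control. Its log2 fold change was -2.27 ± 0.05 (SE), 4.84-fold lower by the means of CPM (edgeR adjusted p = 9.19e-13).

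KRT4 (ENSG00000170477), the type II partner of KRT13, had the largest change of any keratin tested. Its level was 498, 505 and 497 CPM in the NC libraries and 6.77, 8.63 and 10.2 CPM in the si-YTHDF2 libraries. The controls were close together, and no si-YTHDF2 library came near them. The means, 499.9 ± 4.15 and 8.53 ± 1.71 CPM (SD, n = 3 each), differed 58.6-fold, a log2 fold change of -5.88 ± 0.10 (SE) with an edgeR adjusted p of 2.35e-14. KRT4 was down by more than KRT13. Per kilobase of transcript, the ratio of KRT4 to KRT13 was 0.0345 to 0.0358 in NC and 0.0025 to 0.0033 in si-YTHDF2, which do not overlap.

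KRT3 (ENSG00000186442), the type II keratin of the corneal epithelium, was present at a low level. It had counts of 136, 126 and 127 in NC against 27, 28 and 33 in si-YTHDF2, again with no overlap. Its log2 fold change was -2.14 ± 0.21 (SE) at an edgeR adjusted p of 2.07e-06. The fourth member, KRT76, a keratin of the oral palate, had 1 count in all. KRT3 and KRT4 are neighbours among the keratins of the table, with 10431 bases between the gene bodies, and of 50-base stretches of their transcripts 3.92% in KRT3 and 0% in KRT4 occur in another gene of the GENCODE 29 annotation. The 12 mucosal and secretory markers given above fell in the same libraries, and their part in these values was not tested.

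**Figure D2:**
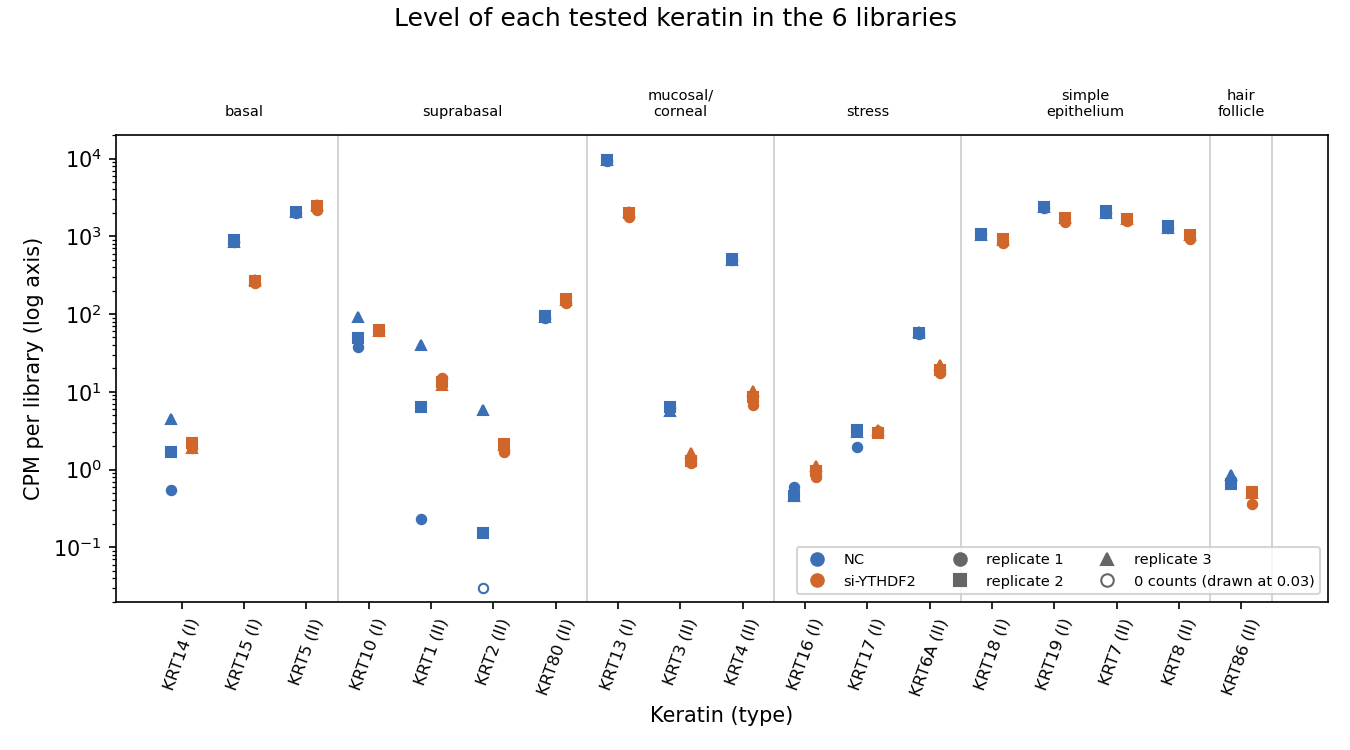
Level of the 18 tested keratins in each library, in TMM-scaled CPM on a log axis, ordered by role; colour gives the group, the marker shape the replicate number, and an open marker a library with 0 counts. The groups stand apart for KRT4 and KRT13, while the NC libraries alone spread widely for KRT1 and KRT2.

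Of the 3 basal keratins, 1 rose, 1 fell and 1 was not called, where 26.1% of all tested genes rose and 25.2% fell. KRT5 (ENSG00000186081), the type II keratin of the basal layer, had 1989, 2046 and 2053 CPM in NC against 2175, 2482 and 2495 CPM in si-YTHDF2. The groups did not overlap, but replicate 1 of si-YTHDF2 lay closer to the controls than to the other two. Its mean rose from 2029 ± 35.2 to 2384 ± 181 CPM (SD, n = 3), with edgeR values in the same direction (log2 0.23 ± 0.05 SE, edgeR adjusted p = 0.00250).

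KRT15 (ENSG00000171346), a type I keratin of basal cells and of the hair follicle bulge, fell. It stood at 848, 901 and 845 CPM in NC and at 252, 264 and 278 CPM in si-YTHDF2, a wide gap between the groups. The log2 fold change was -1.71 ± 0.05 (SE), or 3.27-fold lower (edgeR adjusted p = 2.35e-11). Per kilobase, the KRT5 level was 2.15 to 2.30 times that of KRT15 in NC and 8.17 to 8.90 times in si-YTHDF2.

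KRT14 (ENSG00000186847), the usual type I partner of KRT5, was nearly absent from every library. Its counts were 12, 33 and 98 in NC against 42, 48 and 38 in si-YTHDF2, so the si-YTHDF2 values fell within the span of the controls. No difference was called (log2 -0.15 ± 0.50 SE, edgeR adjusted p = 0.820). KRT5 exceeded it per kilobase by a factor of at least 304 in each library. Of the 50-base stretches of KRT14, 23.8% occur in other genes, so its few counts are uncertain.

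The suprabasal keratins number 7, of which 4 were tested. KRT80 (ENSG00000167767), a type II keratin found near desmosomes in differentiating epithelia, had 89.8, 95.7 and 90.5 CPM in NC against 137, 156 and 151 CPM in si-YTHDF2. All si-YTHDF2 libraries were above all controls. It rose 1.61-fold (log2 0.69 ± 0.06 SE, edgeR adjusted p = 7.15e-07).

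The epidermal differentiation keratins KRT1 (ENSG00000167768), KRT2 (ENSG00000172867) and KRT10 (ENSG00000186395) were set apart by the spread of the controls. KRT1, the type II keratin of the spinous layer, had 5, 126 and 888 counts in NC replicates 1, 2 and 3, and 339, 286 and 244 in si-YTHDF2. KRT2, a type II keratin of the uppermost living layers, had counts of 0, 3 and 128 in NC against 37, 46 and 41 in si-YTHDF2. KRT10, the type I partner of KRT1, had 819, 975 and 1999 in NC against 1329, 1342 and 1197 in si-YTHDF2.

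For each of the 3 genes the si-YTHDF2 libraries were close together and lay inside the range of the controls. None was called: the log2 fold changes were -0.21 ± 0.76, -0.04 ± 0.92 and 0.03 ± 0.21 (SE), with edgeR adjusted p-values of 0.840, 0.972 and 0.920. NC replicate 3 decided this. Without it, the log2 fold changes were 2.06 for KRT1 and 0.48 for KRT10, with edgeR adjusted p-values of 0.0110 and 0.00213. KRT2 was at 4.63 in that fit, but with 0 and 3 counts in the controls left it passed the low-count filter through si-YTHDF2 libraries alone, so it had to differ and its call is no support. The count of keratins called higher went from 2 to 5, KRT2 among them. KRT2 was also called by limma-voom, at a log2 fold change of 2.74 (adjusted p = 0.0443). Its mean level was 1.98 CPM in NC and 1.94 CPM in si-YTHDF2, with NC replicate 3 above every si-YTHDF2 library, so that call is no support for a rise. KRT1 is much scarcer than its partner in every library, at 0.00529 to 0.385 of KRT10 per kilobase in NC and 0.177 to 0.221 in si-YTHDF2.

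Some other genes of cornifying epidermis had the same order among the controls. FLG, which encodes filaggrin, had counts of 2, 105 and 769 in NC against 316, 234 and 253 in si-YTHDF2. DSG1, a desmosomal cadherin of the upper layers, had 3, 42 and 299 in NC against 88, 86 and 80 in si-YTHDF2. A list of 18 genes of terminally differentiating epidermis, drawn up after the KRT1 values were seen, had 17 with a row and 7 tested, with a lowest edgeR adjusted p of 0.148, for KRTDAP. Its summed level was 0.686, 13.7 and 90.1 CPM in NC and 28.4 to 31.9 CPM in si-YTHDF2. The 7 tested members all had the order of KRT1 among the controls. Among those not tested, HRNR (1, 3 and 0 counts in NC), LCE5A (3, 1 and 7) and DCD (0, 1 and 0) departed from it. VIM, which encodes the mesenchymal filament protein vimentin, ran the other way among the controls, with 336, 155 and 41 counts in NC replicates 1, 2 and 3, and had 245, 244 and 233 in si-YTHDF2 (log2 0.43 ± 0.43 SE, edgeR adjusted p = 0.424). The summed level of the 9 fibroblast markers ran the same way as VIM. It was 78.5, 36.4 and 26.1 CPM in NC replicates 1, 2 and 3 and 35.1 to 42.5 CPM in si-YTHDF2. Not every marker had that order: PDGFRB, THY1 and FAP were highest in NC replicate 2 among the controls. The lowest edgeR adjusted p among the 6 tested was 0.120, for LUM. What sets the controls apart was not tested.

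**Figure D3:**
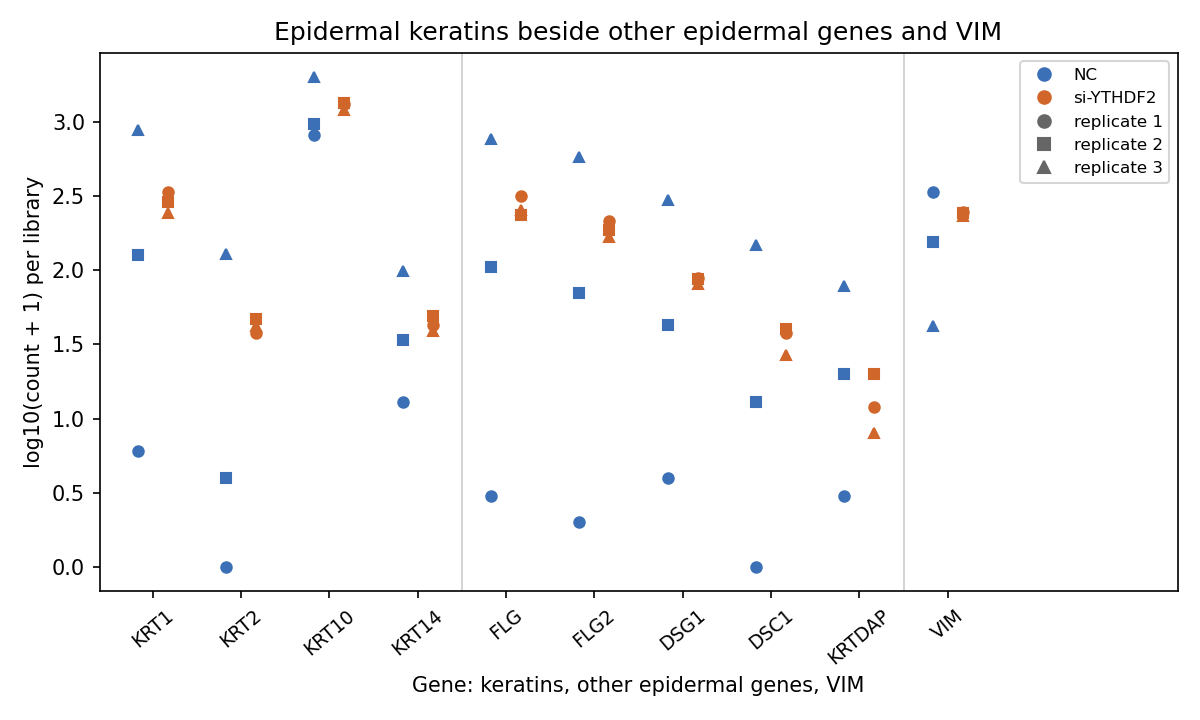
Counts per library, as log10(count + 1), of 4 epidermal keratins, 5 other epidermal genes and VIM; colour gives the group and the marker shape the replicate number. NC replicate 3 is highest and NC replicate 1 lowest for each of the keratins and epidermal genes drawn, the order among the controls is the reverse for VIM, and the si-YTHDF2 libraries lie close together.

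The remaining suprabasal keratins were not tested. KRT9, the keratin of palms and soles, had 45 counts in all, KRT77, a keratin of sweat gland ducts, had 28, and KRT78 had 64. KRT78 counts were 9, 15 and 25 in NC against 4, 5 and 6 in si-YTHDF2, which do not overlap. It was called lower when NC replicate 1 or si-YTHDF2 replicate 3 was left out, but passed the filter there through NC libraries alone, so those calls are no support. With no filter both it and KRT36 were called lower.

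Of the 5 stress keratins in the table, 3 were tested, 1 fell and 2 were not called, where 25.2% of all tested genes fell. KRT6A (ENSG00000205420), the type II keratin induced in wounds, had 54.7, 56.7 and 58.4 CPM in NC against 17.5, 19.2 and 22.2 CPM in si-YTHDF2. Every si-YTHDF2 library was below every control, and the log2 fold change was -1.53 ± 0.09 (SE), or 2.88-fold lower (edgeR adjusted p = 9.68e-09).

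Its type I partners were scarce. KRT16 (ENSG00000186832) had counts of 13, 9 and 10 in NC against 18, 21 and 22 in si-YTHDF2. The groups did not overlap and the si-YTHDF2 values were the higher, but the gene was not called (log2 0.92 ± 0.38 SE, edgeR adjusted p = 0.0601). Scaled by library totals instead of TMM it was called, at an adjusted p of 0.0433. KRT17 (ENSG00000128422) had counts of 43, 64 and 68 in NC against 69, 63 and 64 in si-YTHDF2, with overlapping groups (log2 0.15 ± 0.24 SE, edgeR adjusted p = 0.635). Per kilobase, KRT6A exceeded KRT16 by a factor of 65.5 to 92.0 in NC and of 14.1 to 15.4 in si-YTHDF2.

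These genes have close relatives. Of 50-base stretches, 39.1% of KRT6A, 22.0% of KRT16 and 17.4% of KRT17 occur in another gene, for KRT6A mostly in KRT6C. No source used here says how the authors counted shared reads, so the split among the KRT6 genes is uncertain. KRT6B and KRT6C had 3 and 10 counts in all and were not tested.

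The keratins of simple epithelia were all abundant, and all 4 fell by a modest amount, where 25.2% of all tested genes fell. KRT19 (ENSG00000171345), the smallest type I keratin, had 2317, 2397 and 2353 CPM in NC against 1510, 1724 and 1698 CPM in si-YTHDF2. Its log2 fold change, the largest fall of the 4, was -0.52 ± 0.05 (SE) at an edgeR adjusted p of 2.29e-06. KRT7 (ENSG00000135480), a type II keratin of ducts and glands, had 1988, 2108 and 2016 CPM in NC against 1551, 1679 and 1670 CPM in si-YTHDF2. It fell by 0.32 on the log2 scale (edgeR adjusted p = 7.56e-05).

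KRT8 (ENSG00000170421) and KRT18 (ENSG00000111057) are the partners of the earliest embryonic epithelia. KRT8 had 1265, 1356 and 1267 CPM in NC against 936, 1047 and 1040 CPM in si-YTHDF2, and KRT18 had 1057, 1072 and 1033 CPM in NC against 818, 921 and 903 CPM in si-YTHDF2. They fell by 0.36 and 0.26 on the log2 scale (edgeR adjusted p = 7.65e-05 and 8.65e-04). Neither had overlapping groups. Per kilobase, the ratio of KRT8 to KRT18 was 1.01 to 1.06 in NC and 0.957 to 0.970 in si-YTHDF2, close to 1 although the groups did not overlap. Of their 50-base stretches, 41.3% in KRT8 and 35.1% in KRT18 occur in other genes, 36 and 43 genes respectively, so both levels are uncertain where reads were shared. The gene bodies of KRT8 and KRT18 also overlap by 1084 bases on opposite strands, and no source used here says whether counting used strand.

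Of 13 hair follicle keratins 1 was tested. KRT86 (ENSG00000170442), a type II keratin of the hair shaft, had counts of 16, 13 and 19 in NC against 8, 11 and 10 in si-YTHDF2. The groups did not overlap, and the gene was not called (log2 -0.72 ± 0.41 SE, edgeR adjusted p = 0.163). Its gene body overlaps that of KRT7 by 2887 bases on the same strand, and 39.2% of its 50-base stretches occur in other genes, mostly KRT81, so these few counts cannot be placed with certainty.

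The other 12 follicle keratins had few counts. KRT74, a keratin of the inner root sheath, had 39 counts in all. KRT36, a type I hair keratin, had 6, 1 and 2 counts in NC and 0 in each si-YTHDF2 library. KRT25, KRT27, KRT28, KRT71, KRT73, KRT75, KRT79, KRT81, KRT82 and KRT85 each had between 1 and 5 counts in all. KRT222 had 1 count. Apart from KRT36 with no filter, none of these was called under any setting run. In the others, so few counts left little room to detect a difference between the groups.

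Summed keratin RNA was lower in si-YTHDF2, and KRT13 made up most of the difference. Keratins made up 1.91%, 1.95% and 1.94% of all counts in the NC libraries and 0.962%, 1.06% and 1.05% in the si-YTHDF2 libraries. The groups did not overlap, with means of 1.93% ± 0.02 and 1.02% ± 0.05 (SD, n = 3), and the exact permutation p (two-sided) was 0.1, the floor for 3 libraries against 3. KRT13 accounted for 76.4% of the fall in summed keratin CPM, which went from 19768 to 10015. Without KRT13, the keratins were 1.01% ± 0.01 of counts in NC and 0.825% ± 0.042 in si-YTHDF2 (SD, n = 3). Without the 3 most abundant keratins, KRT13, KRT5 and KRT19, they were 0.585% and 0.414%.

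Type II keratins held 30.5% ± 0.2 of keratin counts in NC and 52.1% ± 0.1 in si-YTHDF2 (SD, n = 3, exact permutation p = 0.1, two-sided). Per kilobase of transcript the share was 26.3% and 45.0%. Most of this shift rested on the same abundant genes, since without the top 3 the type II share was 66.9% and 70.1%. By calls the types were less far apart. Of the tested keratins, 4 of 8 of type I and 5 of 10 of type II fell, where 25.2% of all tested genes fell. The 2 that rose are both of type II, where 26.1% of all tested genes rose. The median log2 fold change was -0.21 for type I and -0.34 for type II. No test of a difference between the types was made.

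By role, mucosal and corneal keratins went from 50.1% ± 0.3 to 19.5% ± 0.2 of keratin counts (SD, n = 3). Simple-epithelium keratins went from 34.1% ± 0.5 to 51.6% ± 0.4 and basal keratins from 14.7% ± 0.1 to 26.5% ± 0.3. These shares sum to the whole, so the simple keratins took a larger share although each of the 4 fell. Suprabasal keratins stayed a small part, at 0.859% ± 0.258 and 2.24% ± 0.07, and stress keratins a smaller one, at 0.304% and 0.237%.

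**Figure D4:**
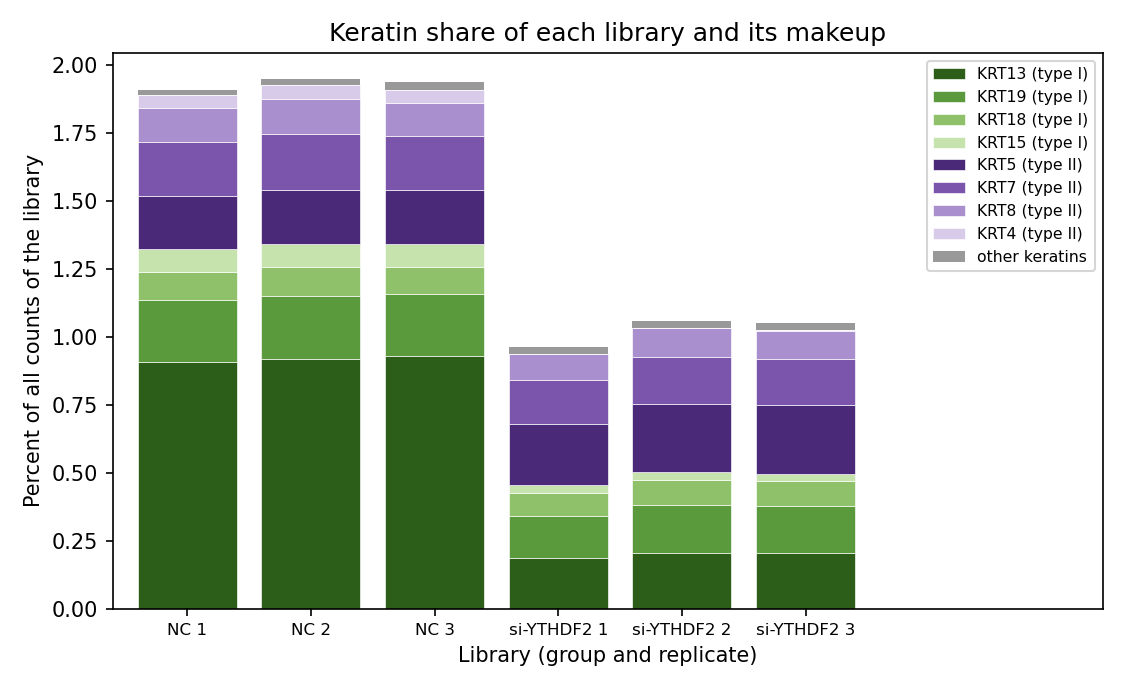
Share of all counts that came from keratins in each library, stacked by the most abundant keratins and the rest. The bars reach 1.91% to 1.95% in NC and 0.962% to 1.06% in si-YTHDF2, and most of the drop is in the KRT13 segment.

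Levels of different keratins were ordered per kilobase of transcript. In NC, KRT13 led with 5527 ± 113 CPM per kilobase, followed by KRT19 at 1695 ± 29 and KRT7 at 1162 ± 36 (SD, n = 3), with no overlap between these neighbours. KRT5, KRT8 and KRT18 came next at 802, 768 and 742, where KRT5 overlapped KRT8 and KRT8 overlapped KRT18. KRT15 had 361 and KRT4 194, apart from their neighbours.

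In si-YTHDF2, KRT19 at 1183 ± 84 and KRT13 at 1143 ± 80 CPM per kilobase overlapped at the top. KRT5 at 942 and KRT7 at 931 overlapped as well, as did KRT18 at 620 and KRT8 at 597. KRT15 at 110 and KRT80 at 38.3 followed, apart from their neighbours. KRT4, at 3.31, went from rank 8 to rank 12 of the 18 tested keratins, below KRT1 at 5.52. No library of either group had KRT14, KRT16, KRT86 or KRT17 above 3 CPM per kilobase.

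The tested keratins lie in 2 gene clusters. On chromosome 12, from 52168996 to 52952901 of GRCh38, stand the 23 type II genes and KRT18, 24 keratins of which 11 were tested, 6 fell and 2 rose. On chromosome 17, from 40654665 to 41624842, stand the other 13 type I genes, of which 7 were tested, 3 fell and none rose. Over all tested genes, 25.2% fell and 26.1% rose. The 3 that fell there, KRT13, KRT15 and KRT19, follow one another among the keratins of the table, from 41500981 to 41528308. On chromosome 12, KRT6A, which fell, and KRT5, which rose, lie in the same stretch, from 52487174 to 52520687.

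**Figure D5:**
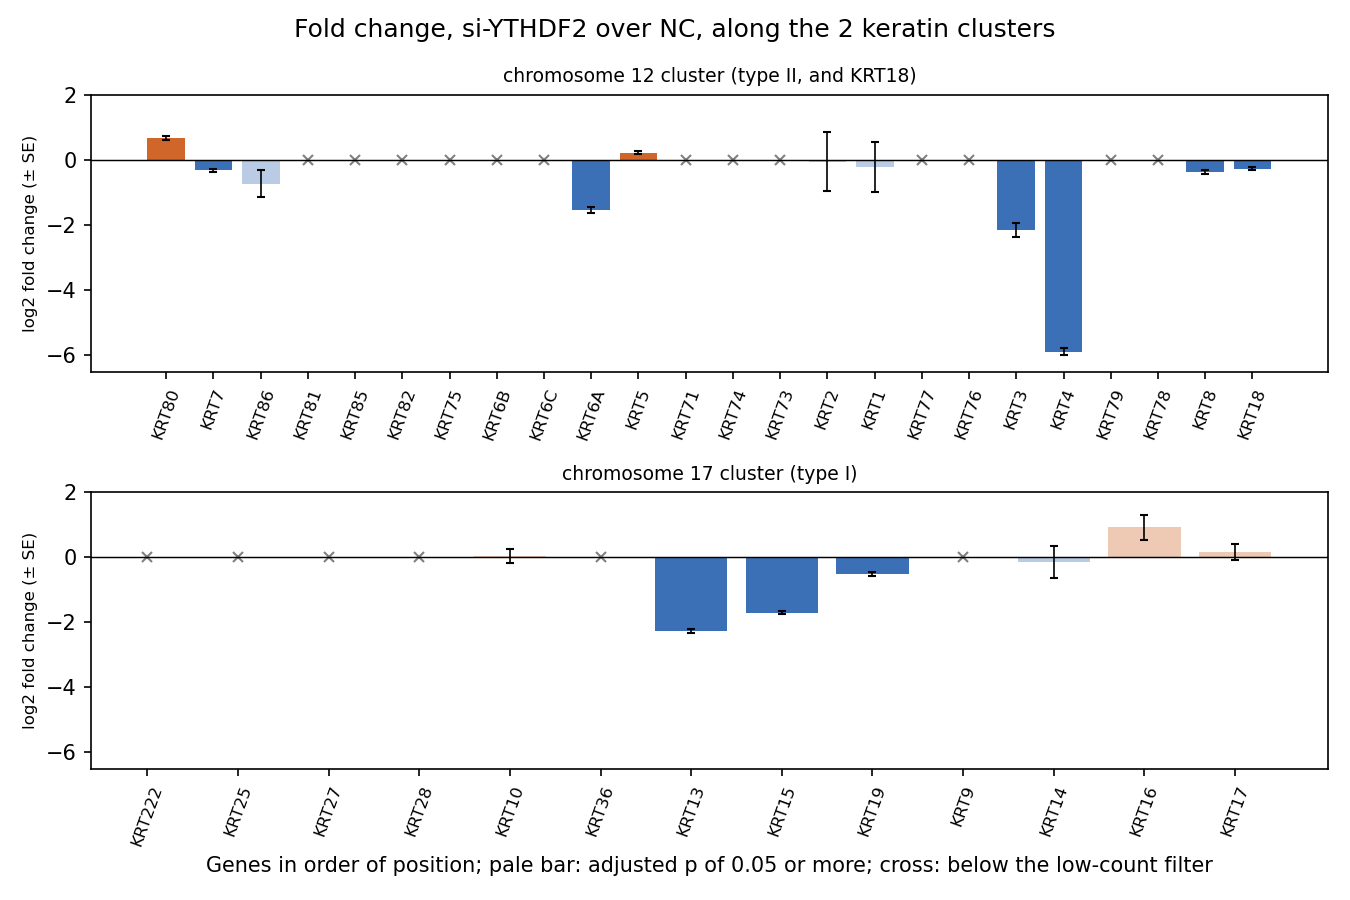
Log2 fold change (si-YTHDF2 minus NC) of the tested keratins in their order along the clusters on chromosome 12 and chromosome 17. Colour gives the direction of the log2 fold change, and a paler colour marks a gene that was not called. The 3 adjacent genes KRT13, KRT15 and KRT19 are all lower, and the neighbours KRT3 and KRT4 are at -2.14 and -5.88.

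Genes of proteins that anchor or bind keratin filaments were called at shares near those of all genes. Of 20 linkers and partners all were tested, 6 rose, 7 fell and 7 were not called, where 26.1% of all tested genes rose and 25.2% fell, with a median log2 fold change of -0.06 beside 0.01 over all genes. The 4 with the smallest p-values include 3 giant plakins that rose: PLEC (plectin), which ties filaments to hemidesmosomes, went from 269 ± 18 to 421 ± 24 CPM (SD, n = 3), with a log2 fold change of 0.65. DST (dystonin) rose by a log2 fold change of 0.69 and MACF1, a linker of actin and microtubules, by 0.48. EPPK1 (epiplakin), which binds keratin networks, fell from 13.0 ± 2.6 to 6.38 ± 1.90 CPM (log2 -1.03, edgeR adjusted p = 7.69e-04).

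Among other intermediate filament genes, 7 of 15 were tested, of which 4 rose and 1 fell. Their median log2 fold change was 0.35 beside 0.01 over all genes, of which 26.1% rose and 25.2% fell. The 4 that rose are SYNM (synemin) with a log2 fold change of 0.81 and the nuclear lamins LMNA at 0.40, LMNB1 at 0.35 and LMNB2 at 0.21. Their edgeR adjusted p-values ran from 3.87e-05 to 0.00215.

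Transcription factors and receptors known to act on keratin genes mostly fell. Of 30 in the list, 29 were tested, 22 fell, 4 rose and 3 were not called, beside 25.2% lower and 26.1% higher over all tested genes. The median log2 fold change was -0.58 in the list and 0.01 over all genes. The lowest p-values belonged to FOS, ELF3, FOSB and GATA3. FOS and FOSB, subunits of AP-1, went from 188 ± 2 to 11.2 ± 0.6 CPM and from 75.4 ± 5.1 to 8.60 ± 0.86 CPM (SD, n = 3), log2 fold changes of -4.08 and -3.13. The AP-1 subunits of the list did not all fall: FOSL2, JUN and JUNB also fell, but FOSL1 and JUND rose, by 1.27 and 0.55 on the log2 scale. ELF3, an epithelial ETS factor that is also in the mucosal list, went from 561 ± 10 to 140 ± 8 CPM, and GATA3 from 191 ± 8 to 57.0 ± 1.1 CPM. TP63, the factor of basal stratified epithelium, fell from 376 ± 4 to 308 ± 7 CPM (log2 -0.29, edgeR adjusted p = 1.62e-04). Whether any of them bears on the keratin values was not tested.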

How the data were processed

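RNA of 3 NC and 3 si-YTHDF2 libraries was sequenced after ribosomal RNA depletion, per the labels' protocols. The authors deposited raw counts per gene and library, per the file headers. The submitters' processing notes name hg38. Which aligner, counter and strand setting were used is not given in the sources used here. A further 6 columns of normalized values were not used. The 2 data lines without values were left out, so that 16551 genes remained, and a library held 19803707 to 22698069 counts.

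The counts of all genes were fitted with edgeR 4.0.16 in R 4.3.3 (TMM factors, filterByExpr with a minimum count of 10, which here meant 0.468 CPM in at least 3 libraries, quasi-likelihood test, two-sided, no covariate). The filter left 12264 genes, over which p-values were adjusted by Benjamini-Hochberg. KRT16 passed it through 3 si-YTHDF2 libraries and 1 NC library, KRT2 likewise, KRT1 through 3 si-YTHDF2 and 2 NC libraries, and KRT86 through 3 NC and 2 si-YTHDF2 libraries. The standard error is the log2 fold change divided by the square root of F. CPM are scaled by TMM. Levels per kilobase use the GENCODE 29 transcript with the longest coding sequence. Shared sequence was counted over 50-base stretches of all GENCODE 29 transcripts. Promoters are those of RefSeq.

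The test was run on simulated data with 200 changed genes of known size. It recovered 85% of 100 genes changed by 1 on the log2 scale and 71% of 100 changed by 0.5, with 8 false calls. Each simulated gene had the spread usual for its level, and far fewer genes changed than were called in the data. These rates therefore need not hold for the data, least of all for genes with a wide spread such as KRT1 and KRT2. Alternatives were other scaling factors, DESeq2 1.42.0, limma-voom (limma 3.58.1), other filters and thresholds, a replicate block, and fits without 1 library. Of the lists of linkers, filaments and regulators the 4 tested members with the smallest p are named, with VIM, TP63 and the other AP-1 subunits. The members and lists were chosen with earlier results of these data known.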

Additional observations from a re-analysis of the deposited data

How the results depend on the processing

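The 11 called keratins were called, in the same direction, in all 14 other fits. Leaving out 1 library gave 2 to 5 keratins higher, 9 to 10 lower, 2816 to 3422 genes higher and 2680 to 3335 lower. At a 2-fold minimum there were 0 keratins higher and 5 lower, and 433 genes higher and 474 lower. Among the tested keratins only KRT1, KRT2, KRT10, KRT14 and KRT17, none of them called, changed sign. Leaving out 1 library, their log2 fold changes ran from -0.79 to 2.06, -0.63 to 4.63, -0.22 to 0.48, -0.62 to 0.86 and -0.045 to 0.28. KRT10 was also at -0.08 when NC replicate 2 was left out, and KRT2 at 0.07 when si-YTHDF2 replicate 1 was. With limma-voom KRT14, KRT1 and KRT2 were at 0.30, 1.76 and 2.74. With library totals KRT2 was at 0.024, and the share of higher calls over all genes went from 50.9% to 61.3%. DESeq2 gave KRT2 no adjusted p. The cause of these changes was not tested. Both groups carry replicate numbers 1 to 3, but same-numbered libraries deviated together only weakly (correlations of 0.055, 0.052 and 0.035), although each correlated best with its own number. With the replicate block the same 11 keratins were called, and KRT14, KRT1 and KRT2 were at 0.16, 0.72 and 1.22. Depth limits the 19 untested keratins, which had at most 64 counts each.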
